A study of Mus musculus with 7 samples.

Results

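The murinoglobulins and alpha-2-macroglobulins are a family of large plasma protease inhibitors, here represented by Mug1, Mug2, Mug-ps1, A2m, A2ml1 and Pzp. The probes were those whose symbol in the platform annotation is one of these 6 names. Symbols were found for 5 of the 6, with 10 probes, against 19057 gene symbols on 45281 probes in all. No probe carried the symbol A2m, so that gene was not analysed here. The genes were chosen by family after the intensities of KO and WT arrays had been compared, and the large KO minus WT differences of Mug2 and Mug-ps1 in that comparison selected the family. Their differences between the groups are therefore given as a description, with standard errors (SE) and without p-values.

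RNA from whole liver of C57BL/6 mice was measured on Illumina bead arrays with 1 colour, 12 h after partial hepatectomy (PHx), an operation that removes part of the liver so that the remainder regenerates. There were 4 samples of genotype LTBR KO, lacking the lymphotoxin beta receptor of the tumour necrosis factor receptor family, and 3 of genotype WT. PHx was common to all 7. Sex, age, how the allele was made and which parts of the gene it lacks are not given in the sources used here, nor is it said that each sample was a separate animal. No liver taken before PHx was among them, so differences from before the operation and differences that followed it cannot be told apart. The aim, as far as the title states it, was the role of this receptor in liver regeneration.

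Proteins of this family act as traps. A protease that cuts an exposed bait stretch makes the inhibitor close around it, and in most members a reactive thioester bond then links the captive to its captor. The complex is taken up from blood by the receptor LRP1, largely in the liver. Rodent murinoglobulins act as single chains, whereas alpha-2-macroglobulins assemble into tetramers. In the mouse the hepatocyte is the main source of Mug1, Mug2 and of the tetrameric inhibitor Pzp, and in the rat alpha-2-macroglobulin is a strong acute phase protein driven by interleukin 6. Mug-ps1 is annotated as a transcribed pseudogene of the group, and A2ml1 as an alpha-2-macroglobulin-like gene.

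The deposited intensities were background-corrected and are given on the log2 scale. A floor at an intensity of 93.4, or 4.98 on that scale, marked the upper bound of background, and a probe was kept when at least 3 arrays lay above it. Of the family's 10 probes 8 were kept, out of 19047 kept probes in all. Precision is limited by the number of arrays, with a median SE of 0.18 for a log2 difference. A probe's brightness depends on its sequence, so a level is compared between groups for the same probe and never between probes.

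The targeted gene Ltbr had 1 probe, with log2 intensities of 6.63, 7.04 and 7.28 on the WT arrays, and of 5.86, 6.23, 6.08 and 5.61 on the KO arrays. Every KO value was below every WT value. The difference of -1.04 (SE 0.20) missed the threshold of limma over all kept probes (adjusted p = 0.082). Where this probe lies relative to the deleted part is not given in the sources used here.

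Mug2 had the largest differences of all kept probes. It encodes murinoglobulin 2, a single-chain inhibitor secreted by hepatocytes. Probe ILMN_2793806 gave log2 intensities of 12.62, 12.64 and 12.34 for WT against 8.35, 8.07, 6.78 and 8.01 for KO. The groups were far apart, with no overlap, and KO replicate 3 was the lowest array. The KO mean was 7.80 ± 0.69 (SD, n = 4) against 12.53 ± 0.17 (SD, n = 3) in WT, a log2 difference of -4.73 (SE 0.31), or 26.6-fold.

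The next probe of Mug2, ILMN_2685043, had log2 intensities of 12.08, 12.11 and 11.61 for WT against 7.55, 7.35, 5.62 and 7.03 for KO. It repeated the separation and again had its lowest value in KO replicate 3. Its log2 difference was -5.04 (SE 0.37), or 33.0-fold. These were the ranks 1 and 2 among all kept probes by the size of the difference. Even so, both probes stayed above the floor on 4 of 4 KO arrays, so a signal remained there. Whether that signal came from Mug2 or from another murinoglobulin transcript was not tested. On the deposited linear scale the means went from 6014 to 302.2 for the first probe and from 4015 to 194.4 for the second.

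The third probe of Mug2, ILMN_1257246, hardly rose above background in either group. It read 5.14, 5.53 and 5.02 on the log2 scale in WT, just over the floor, and 4.42, 4.71, 4.73 and 4.49 in KO, below it on every array. It thus passed the filter through the WT arrays alone. Its measured difference was -0.64 (SE 0.18), and -0.21 without background correction. No fold is given, because the KO values lie below the floor.

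**Figure D1:**
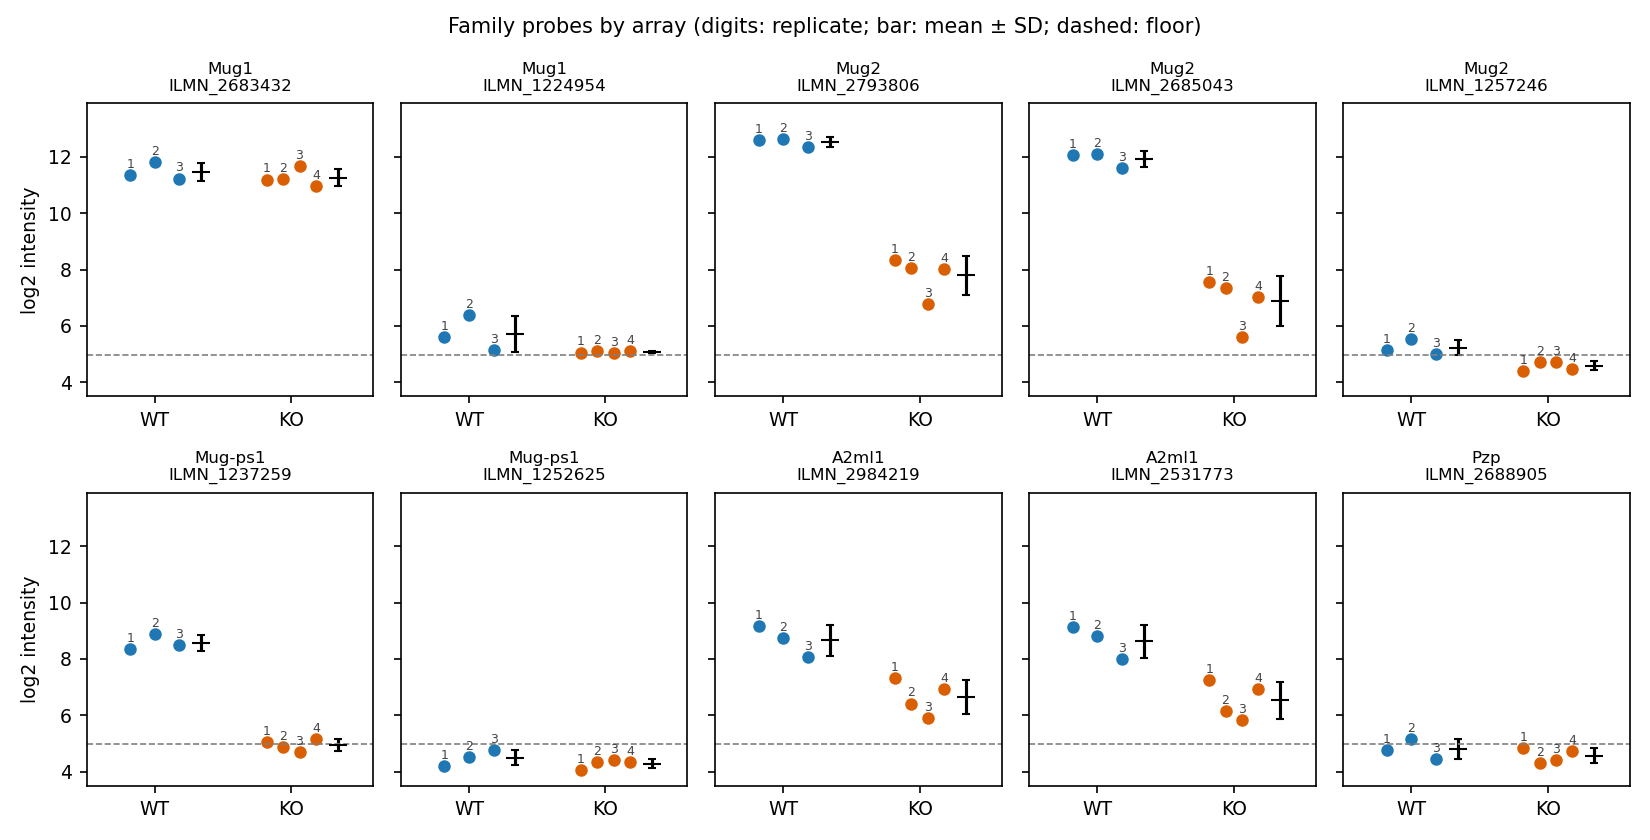
Log2 intensity (vertical axis) of the 10 family probes on each array, WT in blue and KO in orange, with the replicate number at each point, the mean ± SD beside each group and the floor of 4.98 as a dashed line. Mug2 (2 probes) and Mug-ps1 (1 probe) separate widely by genotype, and A2ml1 (2 probes) separates by a narrower gap. The bright Mug1 probe overlaps, and the remaining probes lie at or near the floor.

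Mug-ps1, the pseudogene, was at background in KO. Probe ILMN_1237259 gave log2 intensities of 8.34, 8.87 and 8.48 for WT against 5.05, 4.89, 4.68 and 5.15 for KO. All KO values lay at the floor, 2 of 4 just above it and 2 below, while the 3 WT values were well over it. The measured log2 difference was -3.62 (SE 0.18), or 12.3-fold. The KO mean of 4.94 was below the floor, so this size is set in part by how background is treated. Without background correction it was -2.25, or 4.76-fold, and with a larger offset of 50 it was -2.67, or 6.37-fold. Its other probe, ILMN_1252625, was below the floor on all 7 arrays (log2 intensities from 4.06 to 4.77) and was not tested.

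A2ml1 encodes an alpha-2-macroglobulin-like protein and was lower in KO on both of its probes. Probe ILMN_2984219 had log2 intensities of 9.17, 8.74 and 8.06 for WT against 7.32, 6.42, 5.91 and 6.92 for KO. Probe ILMN_2531773 had 9.12, 8.80 and 7.98 for WT against 7.24, 6.14, 5.84 and 6.94 for KO. On both, the groups did not overlap and all 7 arrays were above the floor. The log2 differences were -2.02 (SE 0.32) and -2.09 (SE 0.34), or 4.05-fold and 4.27-fold, ranks 13 and 11 among all kept probes by size. On every array the probes lay within 0.28 of each other on the log2 scale.

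Mug1, which encodes murinoglobulin 1, a close relative of Mug2, had a difference about as large as its SE on its bright probe. That probe, ILMN_2683432, had log2 intensities of 11.35, 11.83 and 11.23 for WT against 11.20, 11.21, 11.67 and 10.96 for KO. The groups overlapped, with WT replicate 2 and KO replicate 3 the highest arrays of their groups. The difference was -0.21 (SE 0.21), with a 95% interval of -0.67 to 0.24, and it was -0.04 without WT replicate 2. Its dim probe, ILMN_1224954, was near the floor with log2 intensities of 5.62, 6.41 and 5.13 in WT and 5.04 to 5.12 in KO. The difference there was -0.64 (SE 0.25), or -0.30 without WT replicate 2, and the lowest WT array barely cleared the highest KO array.

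Pzp encodes the alpha-2-macroglobulin of mouse plasma. Its single probe, ILMN_2688905, gave log2 intensities of 4.77, 5.17 and 4.45 for WT against 4.84, 4.30, 4.39 and 4.72 for KO. It exceeded the floor on 1 of 7 arrays, WT replicate 2, and was not tested. The values say that this probe gave no signal over background, and nothing of the level of Pzp is drawn from them.

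The differences that led to the choice of the family were calls in this same contrast. Of the 8 kept probes 3 had an adjusted p under 0.05, the bright pair of Mug2 probes and 1 of Mug-ps1, all lower in KO. Over all kept probes 0.0578% were called lower in KO and 0.063% in either direction. The 4 KO arrays lay below the 3 WT arrays on 7 of the 8, as they did on 6.46% of all kept probes. Nothing is read from these counts, since the genes were picked with this contrast known, and the Mug-ps1 probe and the dim Mug2 probe passed the filter only with the help of the WT arrays. The A2ml1 pair did not pass under the reported settings. With all 7 arrays the pair passed under other settings, cyclic loess among them, and it passed without WT replicate 3 (log2 differences of -2.32 and -2.42).

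**Figure D2:**
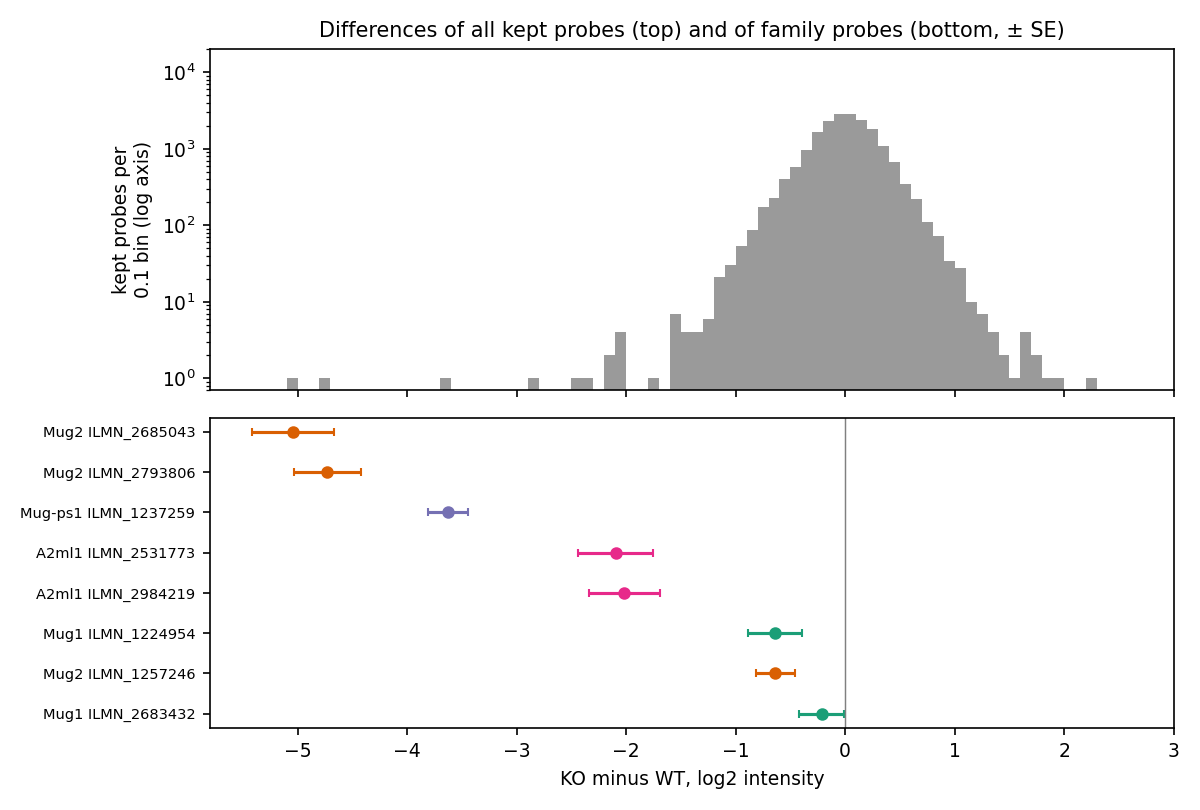
Top, number of kept probes per bin of 0.1 (vertical, log axis) by their KO minus WT log2 difference (horizontal). Bottom, the 8 kept family probes on the same horizontal axis, with SE. Mug2 and Mug-ps1 hold the 3 lowest positions, A2ml1 lies near -2.0, and the bright Mug1 probe at -0.21 lies in the bulk of all probes.

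The sizes were compared across processing settings. The bright Mug2 probes ranged from 20.7-fold to 38.4-fold lower in KO and the others stayed on the same side of 0 wherever they gave a value. Nothing is read from the constant sign, since the family was chosen with this contrast known.

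**Figure D3:**
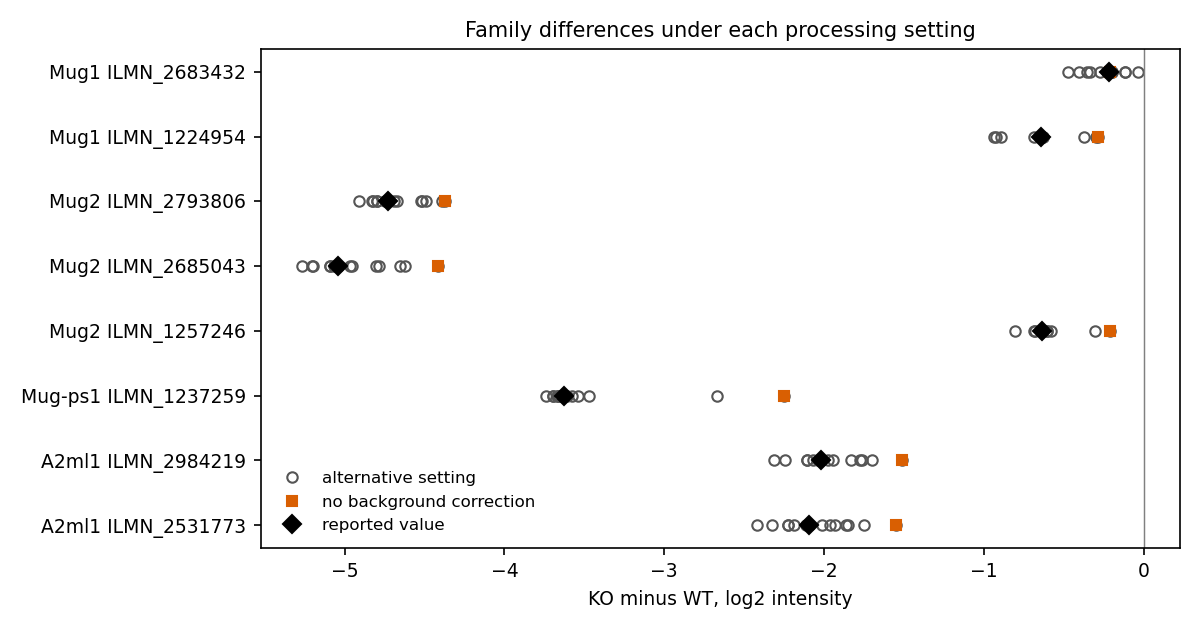
KO minus WT log2 difference (horizontal axis) of the 8 kept family probes (rows), as reported (black diamonds), without background correction (orange squares) and under the other settings (open circles). All values are below 0, and Mug-ps1 moves the farthest, from -3.62 to -2.25.

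Murinoglobulin transcripts are alike, and probe sequences were not used here, so a Mug1 or Mug2 probe may also bind the other or Mug-ps1. Their bright probes nevertheless differed unequally between the genotypes. Within each array, the log2 intensity of Mug2 (probe ILMN_2793806) minus that of Mug1 (probe ILMN_2683432) was 1.26, 0.81 and 1.10 for WT against -2.85, -3.14, -4.88 and -2.95 for KO. Its shift between genotypes was -4.52. Such a difference between probes of unequal brightness has no meaning as a ratio of transcripts, but its shift shows that the probes changed unequally. The shift was -4.83 for the other bright Mug2 probe. The bright Mug2 pair themselves shifted against each other by only 0.31, while the A2ml1 pair did so by 0.077.

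The promoter windows of Mug1 and Mug2 are shown because the pair had nearly the same sequence upstream and such unequal differences between genotypes. They run 250 bases before to 50 after the annotated start, from RefSeq on GRCm38.p6, which matched 4 of the 6 genes. The Mug1 window is chr6:121838291-121838590 and the Mug2 window chr6:122006548-122006847, both on the plus strand. Capitals mark bases that differ in the alignment of the windows, whether mismatched or present in 1 of the 2 only.
Mug1: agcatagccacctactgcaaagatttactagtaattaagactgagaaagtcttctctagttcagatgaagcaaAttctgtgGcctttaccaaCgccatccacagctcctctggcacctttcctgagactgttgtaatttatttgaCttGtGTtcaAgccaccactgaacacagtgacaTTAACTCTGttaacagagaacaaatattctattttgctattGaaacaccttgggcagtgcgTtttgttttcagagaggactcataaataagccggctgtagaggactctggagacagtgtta
Mug2: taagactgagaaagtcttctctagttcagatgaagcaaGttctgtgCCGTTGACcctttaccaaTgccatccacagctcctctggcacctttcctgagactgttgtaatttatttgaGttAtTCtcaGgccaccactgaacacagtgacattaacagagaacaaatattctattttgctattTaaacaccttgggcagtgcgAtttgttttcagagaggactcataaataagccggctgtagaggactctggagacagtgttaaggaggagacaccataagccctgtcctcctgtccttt
The windows overlap with an offset, Mug1 starting 35 bases earlier and Mug2 ending 37 bases later. Of 256 aligned bases 246, or 96.1%, were identical. A run of 9 bases was found in Mug1 only and one of 7 in Mug2 only, and where an aligner puts the edges of such runs is in part arbitrary. The sequence is that of the C57BL/6J reference and not of the mice studied.

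Short motifs were searched on both strands of the 4 windows. A half-site of HNF1, a transcription factor of hepatocyte genes, written GTTAAT, occurred in Mug1, Mug2 and Pzp and not in A2ml1, against 7.10% of all 32851 promoter windows. TATAAA occurred in A2ml1 alone of the 4, against 13.6% of all windows. The STAT motif TTCNNNGAA (8.30% of all windows) and the C/EBP motif TTGCNNAA (10.8%) were in none of the 4. No match of 1 motif overlapped a match of another. These are descriptions of letters in a short window and say nothing on binding.

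All 6 genes lie on chromosome 6 in the RefSeq order, as does Ltbr. From A2m the order runs through Mug1, Mug2, Mug-ps1, Ltbr and Pzp to A2ml1. No gene with a kept probe stood between Mug1 and Mug2 or between Pzp and A2ml1. A single one, Gm10319, stood between Mug2 and Mug-ps1 (log2 difference -1.06, not called). Between Mug-ps1 and Ltbr were 41 and between Ltbr and Pzp 16. Of the 58 genes between Mug1 and A2ml1, leaving out the family and Ltbr, 30 were below 0 and the median log2 difference was -0.02, against 43.5% below 0 and a median of 0.04 over all genes. The differences of these 58 ran from -1.13 to 1.10. Of the 58 only Ptms, which encodes parathymosin, was called (-1.13), and 0.0761% of all genes were. The part of lying on the same chromosome as Ltbr in the differences of the family was not tested. Nor was the part of the loss of the receptor.

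The samples of a genotype also varied among themselves. For the bright Mug2 probes the SD was 0.69 and 0.87 in KO against 0.17 and 0.28 in WT, with KO replicate 3 apart from the other KO arrays, which ran from 8.01 to 8.35 and from 7.03 to 7.55. On the dim Mug2 probe the SD was 0.16 in KO and 0.27 in WT. The deviations of a probe from its own group mean show which arrays were high or low. For the bright Mug2 probes KO replicate 3 deviated by -1.02 and -1.27, whereas KO replicate 1 deviated by 0.55 and 0.66. A2ml1 had KO replicate 3 lowest as well, at -0.73 and -0.70, and KO replicate 1 highest, at 0.68 and 0.70. In WT the same genes were lowest in replicate 3, at -0.19 and -0.33 for Mug2 and -0.60 and -0.65 for A2ml1. The bright Mug1 probe behaved otherwise, with KO replicate 3 its highest KO array at 0.41. With 3 and 4 arrays a group these orders cannot be tested, and arrays share RNA quality and processing across all probes.

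**Figure D4:**
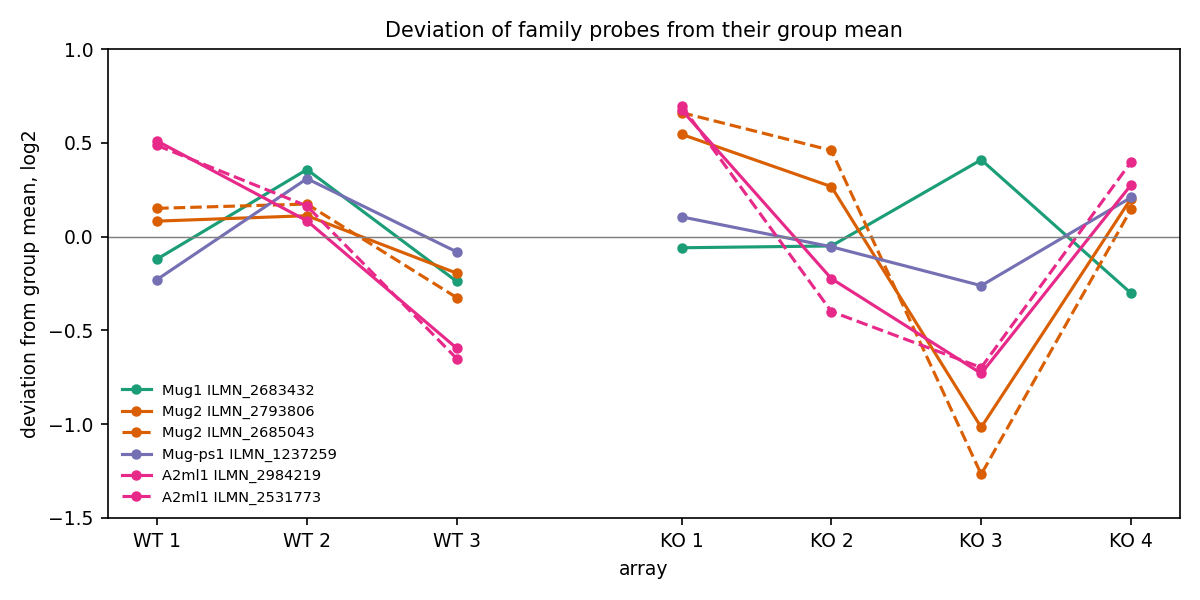
Deviation of the log2 intensity from the mean of its group (vertical axis) on each of the 7 arrays (horizontal axis) for the 6 kept probes with a WT mean above 8 on the log2 scale. Mug2 and A2ml1 are lowest in KO 3 and in WT 3, while Mug1 is highest of its group in KO 3.

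The genes most like each member in these deviations over 7 arrays were found by Pearson's r among 16173 named probes outside the family. For Mug2 they were Bend7, Usp8 and Spryd7 (r from 0.992 to 0.997), with 207 probes over 0.9. For Mug1 they were Zfp639, Cers6 and Dusp4 (r = 0.99 for each), with 125 probes over 0.9. For A2ml1 they were Wfdc6a, Cplane2 and Rabif (r = 0.98 for each), with 70, and for Mug-ps1 Olfml1, Pfn1 and Afmid (r from 0.986 to 0.996), with 97. With so few arrays and so many probes, high values of r are common, and they are given as a description of these arrays. The log2 differences between genotypes of the first gene for each were 0.25 for Bend7, 0.36 for Zfp639, 0.00 for Wfdc6a and -0.21 for Olfml1. Those of the other named genes ran from -0.72 for Afmid to 0.15 for Pfn1. Whether likeness within groups went with a like difference between them was not tested.

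Whole liver holds several cell types, and in bulk RNA fewer cells of a type and less RNA per cell cannot be told apart. Of 10 hepatocyte markers such as albumin, 9 were kept, and the sum of their intensities ran from 120481 to 125540 in WT and from 111818 to 122764 in KO. Their median log2 difference was -0.13, with 8 of 9 below 0, against 0.04 and 43.5% over all genes with a kept probe. The part of this shift in the values of the family was not tested. Of 10 markers of Kupffer cells and macrophages, 8 were kept, with sums from 2040 to 2565 in WT and from 2642 to 4047 in KO. These sums did not overlap between the groups. Among single kept probes 12.8% did not overlap, and no such share was computed for sums of markers. Of the 8, 7 were above 0, with a median log2 difference of 0.39, while 5935 of all 10510 genes were above 0. The part of this difference in the values of the family was not tested. Sums of the markers of stellate cells, sinusoidal endothelium and bile ducts overlapped between the genotypes. Among the defining markers, Tf, Cd5l, Cd68, Kdr, Krt19 and Epcam had no kept probe, and no marker was called.

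Other plasma protease inhibitors of the liver were compared as a list, each gene by its brightest kept probe. The serpins, inter-alpha-trypsin inhibitor chains, kininogens and tissue inhibitors of metalloproteinases make up most of it. All 29 with a probe were tested and 0 were called by limma, while 5 had an unadjusted p under 0.05. Over all genes 0.0761% were called, and 14.8% had an unadjusted p under 0.05. The median log2 difference was -0.18, with 23 of 29 below 0, against 0.04 and 43.5% for the 10510 genes with a kept probe. Hepatocyte markers, with a median of -0.13 and 8 of 9 below 0, were shifted in the same direction. Serpina1a and Ahsg belong to both lists.

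The closest to the threshold was Serpind1, the gene of heparin cofactor II, an inhibitor of thrombin. Its log2 intensity was 9.84 to 10.32 in WT and 8.71 to 9.23 in KO, without overlap. The difference was -1.15 (SE 0.19, adjusted p = 0.055 by limma), and it passed without WT replicate 3. Serpina6, which encodes corticosteroid-binding globulin, differed by -1.21 (SE 0.36), with groups that overlapped slightly, at 8.59 to 10.11 in WT and 7.27 to 8.63 in KO. Fetub, the gene of fetuin-B, differed by -0.58 (SE 0.16), and Tfpi, which encodes an inhibitor of the tissue factor pathway, by -0.62 (SE 0.21), with 0.22 on its other probe. None of these passed. The alpha-1-antitrypsin genes Serpina1a to Serpina1e differed by -0.13 to 0.10, though they are near-identical copies that may share signal. The group means of Serpina1b to Serpina1e, from 14.42 to 14.83 on the log2 scale, were near the top of the intensities. Whether differences come out smaller at that level was not tested.

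Complement proteins with the same thioester fold and the receptors that clear the family were a further list. Of 10 genes 6 were tested, with 0 called by limma and 1 at an unadjusted p under 0.05. The median was -0.27, with 5 of 6 below 0, against 0.04 and 43.5% for all genes. Of all genes 0.0761% were called and 14.8% had an unadjusted p under 0.05. C4a, a complement component, differed by -0.44 (SE 0.19) and Lrpap1, the chaperone of LRP1, by -0.29 (SE 0.16). Lrp1 itself differed by -0.24 (SE 0.22), and Hspa5, a chaperone also reported to bind alpha-2-macroglobulin at the cell surface, by -0.56 (SE 0.34). C4b is a near copy of C4a and its probes disagreed. The brightest gave -0.23 (SE 0.16), and the other 2 gave -1.54 and -1.37.

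Interleukin 6 signalling and acute phase genes, the known input to alpha-2-macroglobulin in the rat, were split in direction. Of 22 tested, 12 were above 0 and 10 below, with a median of 0.07, 0 called by limma and 4 at an unadjusted p under 0.05. Over all genes 43.5% were below 0, 0.0761% were called and 14.8% had an unadjusted p under 0.05. Il6ra, a receptor subunit, differed by -0.90 (SE 0.17, adjusted p = 0.078) on its brightest probe and by -0.15 and -0.12 on the other 2. Stat3, the transcription factor activated by the receptor, differed by -0.57 (SE 0.24), with -0.78 and -0.76 on its other probes. Il6st, the shared receptor chain, differed by -0.40 (SE 0.17). Saa4, a serum amyloid A gene, differed by -1.17 (SE 0.43), its KO values from 6.31 to 8.46 overlapping those of WT from 7.95 to 9.38. The largest differences above 0, chosen after their values were seen, were those of the orosomucoid genes Orm2 (0.86, SE 0.43) and Orm1 (0.44, SE 0.27), which encode acute phase plasma proteins. Haptoglobin (Hp) was at -0.07 (SE 0.16) and fibrinogen alpha (Fga) at 0.05 (SE 0.15). Their group means, from 14.41 to 14.61 on the log2 scale, were near the top of the intensities. Whether differences come out smaller there was not tested.

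Proteases that family members can trap formed the last list. Of 13 tested, 9 were below 0, with a median of -0.07, 0 called by limma on the brightest probe and 3 at an unadjusted p under 0.05. The shares over all genes were 43.5% below 0, 0.0761% called and 14.8% at an unadjusted p under 0.05. Klkb1, which encodes plasma prekallikrein, differed by -0.84 (SE 0.20), with -1.07 on its other probe. Mmp2, a gelatinase gene, differed by -0.62 (SE 0.16) from a dim WT level of 5.77. Plg, the gene of plasminogen, differed by -0.59 (SE 0.18) on its brightest probe. Of its 3 other probes, which gave -1.50 to -0.70, 1 was called (adjusted p = 0.036 by limma). Adamts1, a secreted metalloproteinase gene, differed by 0.32 (SE 0.19) and by -0.17 on its other probe. Prothrombin (F2) differed by -0.03 (SE 0.18).

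**Figure D5:**
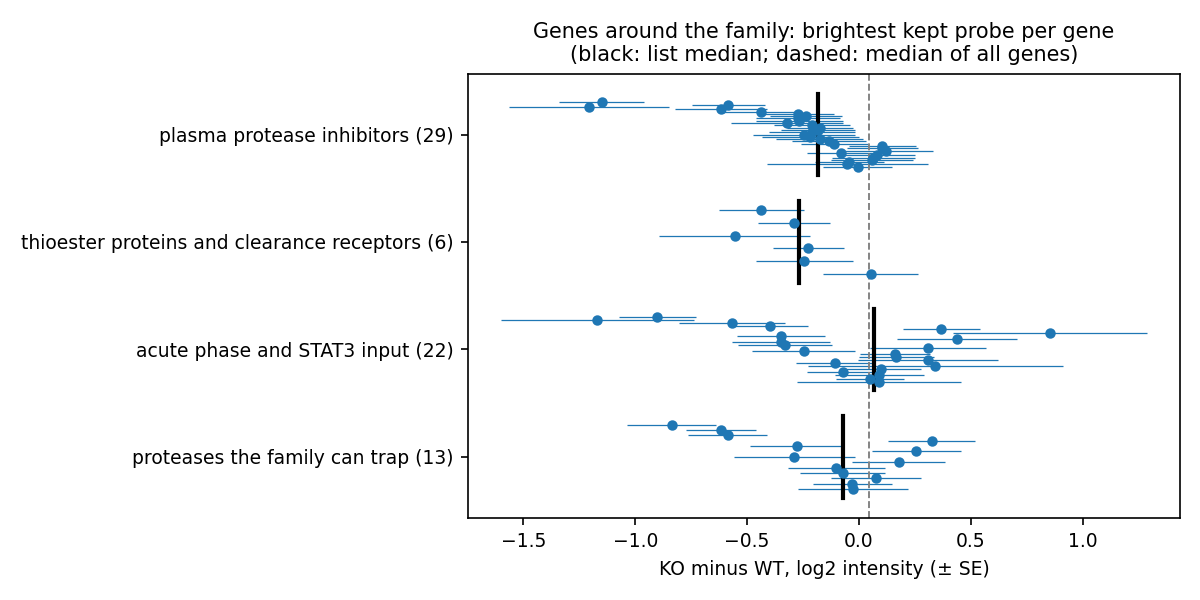
KO minus WT log2 difference with SE (horizontal axis) of each tested gene in the 4 lists (rows, with the number of genes tested), a black bar at each list's median and a dashed line at the median of all genes, 0.04. The lowest plotted gene is Serpina6 at -1.21, which is short of A2ml1 at -2.02.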

How the data were processed

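Biotin-labelled RNA of 7 samples of whole liver was measured on Illumina bead arrays with 1 colour. The deposited values were linear intensities for 45281 probes, already normalized between arrays by the authors as their quartiles show (median 91.1 on each array). Partek is named, without a version, in the submitters' processing notes. A scanner table of 14 columns was not used, since the labels tie none of them to a sample.

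Intensities underwent normexp correction (saddle, offset 16) in limma 3.58.1 (R 4.3.3), and their log2 was taken. Background was modelled as a normal curve around the most frequent intensity, with its spread taken from the values below that point. Its 0.95 quantile, 93.4, served as the floor, and the 19047 probes above it on at least 3 arrays were kept. Probes had 1 symbol (34885), several (18) or none (10378). Genotypes were compared by lmFit and eBayes without covariates, with Benjamini-Hochberg adjustment over all kept probes, two-sided, at 0.05. The spread behind these p-values is that between samples and may be technical. The procedure was tested on simulated data. Arrays correlated at 0.964 to 0.986 within groups and at 0.956 to 0.975 between groups over kept probes.

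The members and lists were chosen with earlier results of these data known. Named genes were every family probe, Ltbr, up to 4 genes of smallest p from each list, and the 3 genes most like each member. Others, such as the Serpina1 genes, Lrp1, Hp, Fga, Orm1, Orm2, F2, Gm10319 and Ptms, were named after their values were seen. Promoters were aligned with Biopython 1.88. Alternatives changed the background correction, offset, normalization, filter, probe summary, prior, array weights, threshold and replicate block, and left out each sample.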

Additional observations from a re-analysis of the deposited data

How the results depend on the processing

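The log2 differences of the 8 kept family probes were below 0 under every alternative that gave a value. The family was chosen with this contrast known, so nothing is read from the constant sign. The dim Mug2 probe, kept through the WT arrays alone, gave no value when a WT array was left out. Leaving out 1 array at a time, those of the bright Mug2 probes ranged from -4.91 to -4.39 and from -5.26 to -4.62, that of Mug-ps1 from -3.74 to -3.47, and those of A2ml1 from -2.32 to -1.76 and from -2.42 to -1.85. The smaller differences of Mug1 moved by more than 1.5 times, from -0.35 to -0.04 on the bright probe, the last without WT replicate 2. On the dim Mug1 probe they ran from -0.93 without WT replicate 3 to -0.30 without WT replicate 2, and this probe was called with array weights and without both replicates 3. The number of family probes called, 3 as reported, ranged from 3 to 5 with 1 array left out, 5 being reached without WT replicate 3 by the A2ml1 pair. It was 4 with a trended robust prior, which added 1 A2ml1 probe, and 5 with cyclic loess, with no filter and at an adjusted p under 0.1, and 7 with array weights, where 997 probes were called in all. With KO replicate 3 and WT replicate 3 both left out, a choice made after seeing the data, it was 6, with 799 called in all. With 1 value per gene the called family genes were Mug2 and Mug-ps1. With only probes above the floor on all arrays Mug2 was called. Mug-ps1 was not tested there, since its kept probe was above the floor on 5 of 7 arrays.

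The labels do not say whether replicate numbers pair the samples, and the deviations gave no sign of it. Deviations of same-numbered WT and KO arrays correlated at -0.18, -0.03 and -0.27, and other pairs at up to 0.27. Deviations centred within such small groups cannot show that the samples were unpaired. With the replicate block 5 family probes were called, the A2ml1 pair in addition to the 3 reported. KO replicate 4 was alone in its block, so the differences in that fit came from the other arrays. They were the same as with KO replicate 4 left out, at -2.11 and -2.23 for the A2ml1 pair. Nothing is read from the added calls.

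For plasma protease inhibitors, 0 as reported, 0 to 1 were called with 1 array left out. It was 1 (Serpind1) with cyclic loess, no filter, a trended robust prior or an adjusted p under 0.1, 3 with array weights and 2 without both replicates 3. For the acute phase list it was 1 (Il6ra) with no filter or an adjusted p under 0.1, 2 with array weights and 4 without both replicates 3. For trappable proteases it was 3 with array weights and 2 without both. The thioester and receptor list had 0 under all 19 alternatives. The causes of these changes were not tested. Near the floor the size of a difference is limited by background, as for Mug-ps1 and for probe ILMN_1257246 of Mug2, which gave -0.21 without background correction and -0.30 with an offset of 50.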
